A study of Mus musculus with 6 samples.

Results

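The clustered replication-dependent histone genes were examined in liver ILC1, innate lymphoid cells that stay in the tissue and are known for interferon gamma. Members were the rows of the raw count table with a symbol starting Hist1h, Hist2h, Hist3h or Hist4h and at least 10 reads in at least 3 libraries. Of 64 such rows 37 met the count rule, out of 24091 gene symbols in the table. They comprise 5 linker histone genes (Hist1h1) and 32 core genes, namely 8 of H2A, 10 of H2B, 5 of H3 and 9 of H4. The AML group was C57BL/6 mice that received C1498 cells intravenously, C1498 being a transplantable myeloid leukaemia line of that strain. The healthy group was C57BL/6 mice given none of these cells. ILC1 were taken from the liver on day 14 in both groups, with 3 libraries each, called AML 1 to 3 and healthy 1 to 3. The sex and age of the mice, the gating of the cells, and whether a library holds 1 animal or a pool are not stated by the labels. P-values therefore set the difference between groups against the spread of these libraries only, and that spread may be partly technical.

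Replication-dependent histones package newly made DNA, and their genes lie in clusters that are transcribed mainly in S phase. Their messenger RNAs normally carry no poly(A) tail. They end just after a short stem-loop that is bound by the stem-loop binding protein, SLBP. Linker histone H1 sits where DNA enters and leaves the nucleosome, while H2A, H2B, H3 and H4 form its core. These libraries were made by priming on poly(A) tails from 2 ng of RNA, without strand information, so that they hold the polyadenylated part of these transcripts. In bulk RNA, fewer cells with a transcript and less of it per cell cannot be told apart.

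Total counts ran from 45135093 to 51284691 per library. The ILC1 markers, Tbx21 and Ncr1 among them, summed to 5326 to 6046 CPM in AML and 5648 to 5843 CPM in healthy libraries. The groups overlapped in this sum. Singly, Ncr1 was higher in AML, at 1558, 1812 and 1770 CPM against 1457, 1472 and 1552 CPM in healthy libraries. Cxcr6 was lower, at 797, 766 and 667 CPM against 889, 1033 and 854 CPM. Neither overlapped between the groups, while the other ILC1 markers did. Over all genes tested, 8.2% were higher and 7.34% lower in every AML library. Markers of other cells did not all overlap. The 10 macrophage and Kupffer cell markers summed to 119 to 190 CPM in AML and 24.4 to 84.2 CPM in healthy libraries. The 6 monocyte markers, of which Lyz2 and Ccr2 make up most, summed to 846 to 987 CPM in AML libraries. The sum was 761 CPM in healthy 1 and 256 to 283 CPM in the other healthy libraries. Of these markers Lyz2, Csf1r and Cd14 overlapped between the groups, while Ccr2, Ly6c2 and Fcgr1 were higher in every AML library. The 6 T cell markers, of which Cd3g makes up most, summed to 979 to 1351 CPM in AML and 1371 to 1692 CPM in healthy libraries. Cd3g itself, at 950 to 1646 CPM over the 6 libraries, did not overlap between the groups. Cd3e, Cd3d, Cd4, Cd8a and Cd8b1 had at most 39.6 CPM in any library, and each overlapped. The 8 dendritic cell markers, of which Itgax makes up most, overlapped in sum. Among them Siglech, which marks plasmacytoid dendritic cells, had 152, 42 and 124 reads in AML and 0 in each healthy library. Ccr9, which such cells also express, had 74, 54 and 70 reads in AML, against 10, 1 and 1 in healthy libraries. The 6 neutrophil markers summed to 89.4, 9.61 and 13.8 CPM in AML, against 12.9, 0.603 and 5.88 CPM in healthy libraries. AML 1 had 1685 reads of S100a8 and 1766 of S100a9, and the groups overlapped in sum. The 5 B cell markers, of which Cd79b makes up most, summed to 5.45 to 6.39 CPM in AML and 5.36 to 7.54 CPM in healthy libraries. Of these lists, Ly6g, a neutrophil marker, and Pax5, a B cell marker, had no reads in any library.

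The sequences that follow show what the linker genes share at their start and what most members share at their end. The first set is the 130 bases before each linker gene's start, from RefSeq on GRCm38.p6, written 5′ to 3′ on the gene's strand. Capitals mark AAACACA, known as the H1 box of linker histone promoters, CCAAT, and TATAAA. The positions are chr13:23763538-23763667 (plus strand) for Hist1h1a, chr13:21780626-21780755 (minus strand) for Hist1h1b, chr13:23738677-23738806 (plus) for Hist1h1c, chr13:23554902-23555031 (plus) for Hist1h1d and chr13:23622559-23622688 (minus) for Hist1h1e.
Hist1h1a: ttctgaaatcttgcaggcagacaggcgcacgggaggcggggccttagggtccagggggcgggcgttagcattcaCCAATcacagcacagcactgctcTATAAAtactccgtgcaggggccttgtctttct
Hist1h1b: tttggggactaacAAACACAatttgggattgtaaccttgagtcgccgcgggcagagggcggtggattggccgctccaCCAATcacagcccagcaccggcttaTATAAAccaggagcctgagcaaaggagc
Hist1h1c: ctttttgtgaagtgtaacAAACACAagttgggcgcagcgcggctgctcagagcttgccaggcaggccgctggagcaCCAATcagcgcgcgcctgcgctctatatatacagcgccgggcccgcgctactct
Hist1h1d: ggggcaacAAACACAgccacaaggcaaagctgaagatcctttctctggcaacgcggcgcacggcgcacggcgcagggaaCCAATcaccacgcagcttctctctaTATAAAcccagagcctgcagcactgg
Hist1h1e: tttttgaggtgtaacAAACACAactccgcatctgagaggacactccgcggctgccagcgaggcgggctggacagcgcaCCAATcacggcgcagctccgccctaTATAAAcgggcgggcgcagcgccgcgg

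Motifs were searched on both strands in the 250 bases before the start, for the 32 members with a RefSeq promoter. AAACACA was present in 4 of 5 linker genes, beginning at -117 in Hist1h1b, -112 in Hist1h1c, -122 in Hist1h1d and -115 in Hist1h1e. It was present in 6.25% of all 32851 RefSeq promoters, and among core members in Hist1h2bm only. CCAAT was present in all 5 linker, all 8 H2A, all 8 H2B, 2 of 3 H3 and 3 of 8 H4 promoters, against 33.8% of all promoters. TATAAA was present in 4 of 5 linker promoters, Hist1h1c having none, against 12.4% of all promoters. It was also present in 5 of 8 H2A, 3 of 8 H2B, 0 of 3 H3 and 3 of 8 H4 promoters. The octamer ATTTGCAT, known from H2B promoters, was present in 4 of 8 H2B and 3 of 8 H2A promoters, against 1.6% of all promoters. It was present in no linker, H3 or H4 promoter. The 3 H2A matches, in Hist1h2ac, Hist1h2ae and Hist2h2ac, were on the opposite strand only. These genes start 180 to 240 bases from an H2B gene on the other strand, so the searched bases span the stretch between both starts. Matches were counted whether or not they overlapped those of another motif. A match describes the letters and not binding.

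The second set is the stem-loop, searched for as GGNNNTTTTNANNNCC on the transcript's own strand within 200 bases after the stop codon, in GENCODE transcripts on GRCm38. Capitals mark the 4 loop bases, with 6 stem bases on either side. A loop was found in 26 of 37 members, beginning 22 to 55 bases after the stop codon, and it had 6 forms. Some members without a found loop have a GENCODE transcript shorter than the counted gene model. It has 393 bases in Hist1h2ai, Hist1h2ak and Hist1h2an and 381 in Hist2h2bb, against models of 447, 535, 446 and 492 bases. A loop past such an end could not be found. The first form was shared by 14 members, among them Hist1h1c, Hist1h1d and Hist1h1e, and the second by 5 H4 genes, among them Hist1h4c and Hist1h4d. The positions of the examples are chr13:23739512-23739527 (plus) for Hist1h1c, chr13:23698089-23698104 (minus) for Hist1h4c, chr13:23561903-23561918 (minus) for Hist1h3e, chr3:96262939-96262954 (minus) for Hist2h4, chr3:96220418-96220433 (minus) for Hist2h2ac and chr13:23757366-23757381 (plus) for Hist1h4b.
Hist1h1c: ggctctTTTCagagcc
Hist1h4c: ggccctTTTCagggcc
Hist1h3e: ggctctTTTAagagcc
Hist2h4: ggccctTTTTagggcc
Hist2h2ac: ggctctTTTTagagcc
Hist1h4b: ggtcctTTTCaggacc

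The annotated 3′ ends are given because the libraries were primed on poly(A) tails. The gene models that the authors counted over ended 4 to 8 bases past the loop in 24 of these 26 members, and further in Hist1h2ad and Hist1h2be. The GENCODE transcripts ran on beyond the loop, by 840 bases in Hist1h1c, 1153 in Hist1h1e and 4884 in Hist1h1d. In 17 members they ran more than 100 bases past it. Reads from such an extended end lie outside the gene model as the count table gives it, so these counts cover the coding part and the short end up to the loop. The GENCODE transcripts of Hist1h1a and Hist1h1b held no loop within the searched distance. They have 741 and 743 bases, against 744 and 793 bases in the counted models, so a loop past their ends could not be found.

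**Figure D1:**
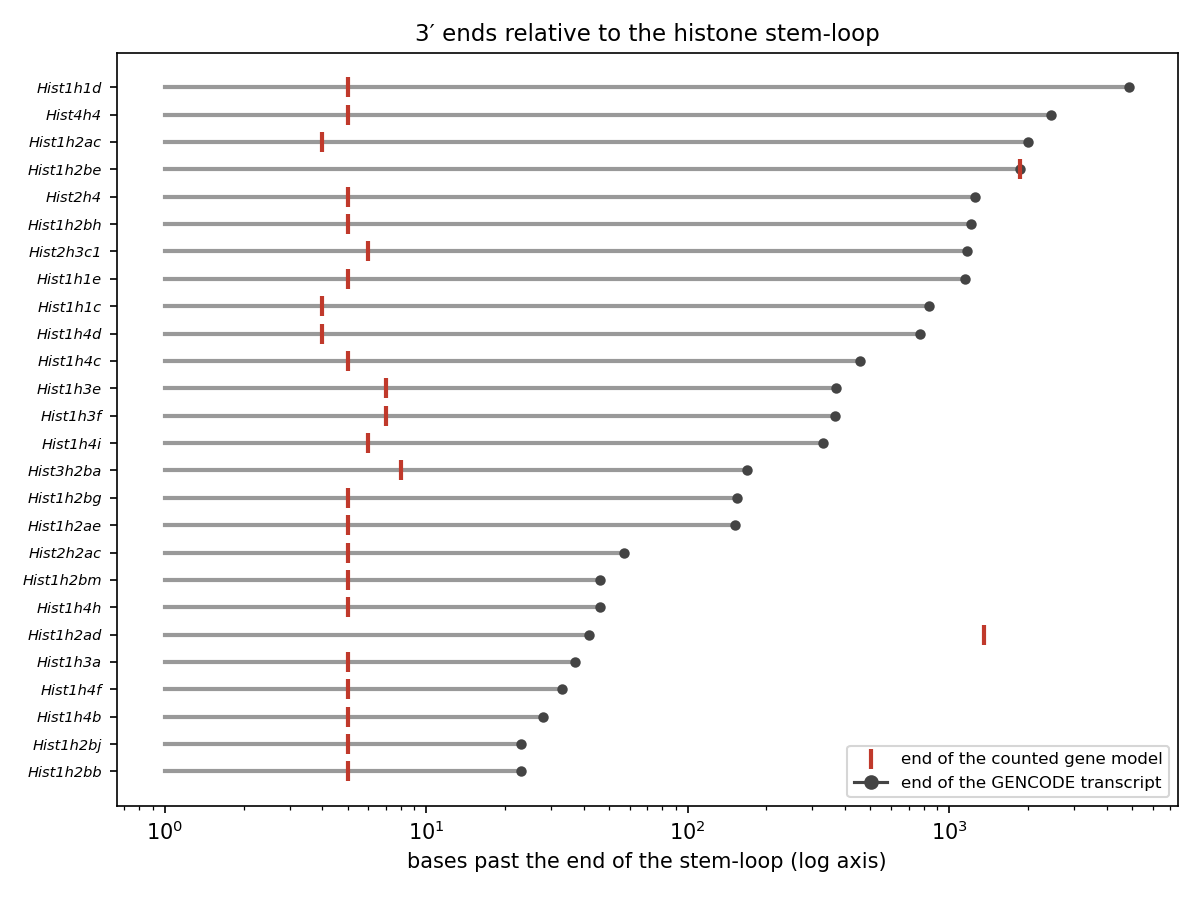
Bases past the end of the stem-loop, on a log axis, for the 26 members with a loop. Red ticks mark the end of the gene model that was counted and grey points the end of the GENCODE transcript. In 24 members the counted model stops 4 to 8 bases past the loop, while transcripts of Hist1h1d, Hist4h4 and Hist1h2ac run on the furthest.

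Many members are near-identical copies, which bears on every count given here. Of all 51-base windows of a transcript, 51 being the read length, 100% occurred at a single place among annotated transcripts in Hist1h1a and Hist1h1b. The share was 81.2% in Hist1h1c, 78.0% in Hist1h1d and 79.1% in Hist1h1e, and its median over the core members was 49.3%. More than 50% of windows were unique in 20 of 37 members. How reads that match several genes were counted is not given in the sources used here, so levels of core genes with close copies are uncertain. The model of Hist2h3c1 also overlaps that of Hist2h2aa2, and that of Hist3h2ba overlaps Mir5098.

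Linker histone transcripts had a lower summed level in every AML library than in any healthy one. They also made up a smaller share of the reads of the 37 members. Summed core histone transcripts overlapped between the groups. The 5 linker genes summed to 36.1, 41.9 and 36.0 CPM in AML 1 to 3, against 65.0, 125.9 and 119.6 CPM in healthy 1 to 3. Every AML library was below every healthy library, with healthy 1 the lowest of its group. The means were 38.0 ± 3.4 CPM in AML and 103.5 ± 33.5 CPM in healthy libraries (SD, n = 3 each). The means of the log2 sums differed by -1.39, AML minus healthy. The 32 core genes summed to 40.5, 49.5 and 44.3 CPM in AML, against 42.5, 76.3 and 73.4 CPM in healthy libraries. Here the groups overlapped, since healthy 1 lay within the AML range, and the means of the log2 sums differed by -0.48. No test was run on these sums, as the members were chosen with results of these data known.

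The linker share of the members' reads did not overlap between the groups, and the libraries of each group lay close together. Linker genes took 47.2%, 45.9% and 44.8% of the summed CPM of all 37 members in AML 1 to 3. The share was 60.5%, 62.3% and 62.0% in healthy 1 to 3. Healthy 1, whose linker and core sums were both the lowest of its group, thus stood beside the other healthy libraries in this share. The share is a ratio within a library and does not move with the size factor. It rests on 1690 to 2192 linker reads in AML and 3211 to 6263 in healthy libraries. Some markers of other cells given above also differed between the groups. These were the macrophage and monocyte sums, Siglech and Ccr9 of the dendritic cell markers, and Cd3g alone of the T cell markers. The other T cell markers overlapped, as did Lyz2, Csf1r and Cd14 of the monocyte markers. Of the healthy libraries, healthy 1 was nearest to the AML libraries in both its monocyte marker sum and its linker sum. The part of these markers in the linker sums and shares was not tested.

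**Figure D2:**
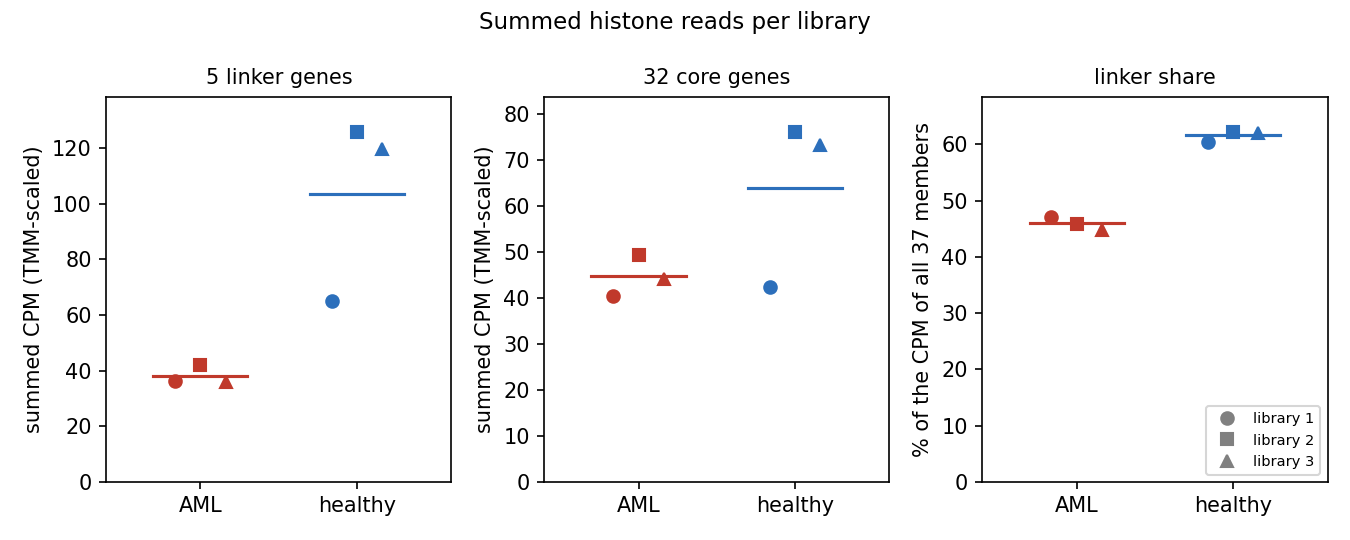
Summed CPM of the 5 linker genes (left) and of the 32 core genes (middle), and the linker genes' percent of both sums (right), with 1 point per library and the group mean as a line. AML libraries sit at 44.8% to 47.2% and healthy libraries at 60.5% to 62.3% in the right panel, while the core sums overlap.

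Of the linker genes, Hist1h1c, which encodes H1.2, had the most reads. It had 25.5, 24.5 and 21.0 CPM in AML 1 to 3, against 40.2, 71.5 and 59.9 CPM in healthy 1 to 3. The groups did not overlap, and the AML libraries lay closer together than the healthy ones. The log2 fold change was -1.27 ± 0.20 (SE), with an adjusted p of 0.323 in edgeR's quasi-likelihood test.

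Hist1h1e, encoding H1.4, had 6.73, 10.5 and 10.8 CPM in AML libraries, against 16.6, 34.6 and 38.0 CPM in healthy libraries. Every AML library was again below every healthy one, and the log2 fold change was -1.67 ± 0.33 (SE; edgeR adjusted p = 0.399). Hist1h1d, encoding H1.3, had 1.99, 6.01 and 3.55 CPM in AML libraries, against 7.76, 16.04 and 19.4 CPM in healthy libraries. It did not overlap between groups either, at a log2 fold change of -1.90 ± 0.47 (SE; edgeR adjusted p = 0.404).

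The other linker genes were scarce and their groups overlapped. Hist1h1a, encoding H1.1, had 8, 26 and 5 reads in AML, against 10, 72 and 48 reads in healthy libraries. Healthy 1 lay within the AML range, and the log2 fold change was -1.76 ± 0.88 (SE; edgeR adjusted p = 0.586). Hist1h1b, encoding H1.5, had 83, 25 and 21 reads in AML, against 13, 113 and 64 reads in healthy libraries. AML 1 was higher than healthy 1 and healthy 3, and the log2 fold change was -0.52 ± 0.84 (SE; edgeR adjusted p = 0.850). Without healthy 2 the estimate for Hist1h1b turned to 0.17.

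**Figure D3:**
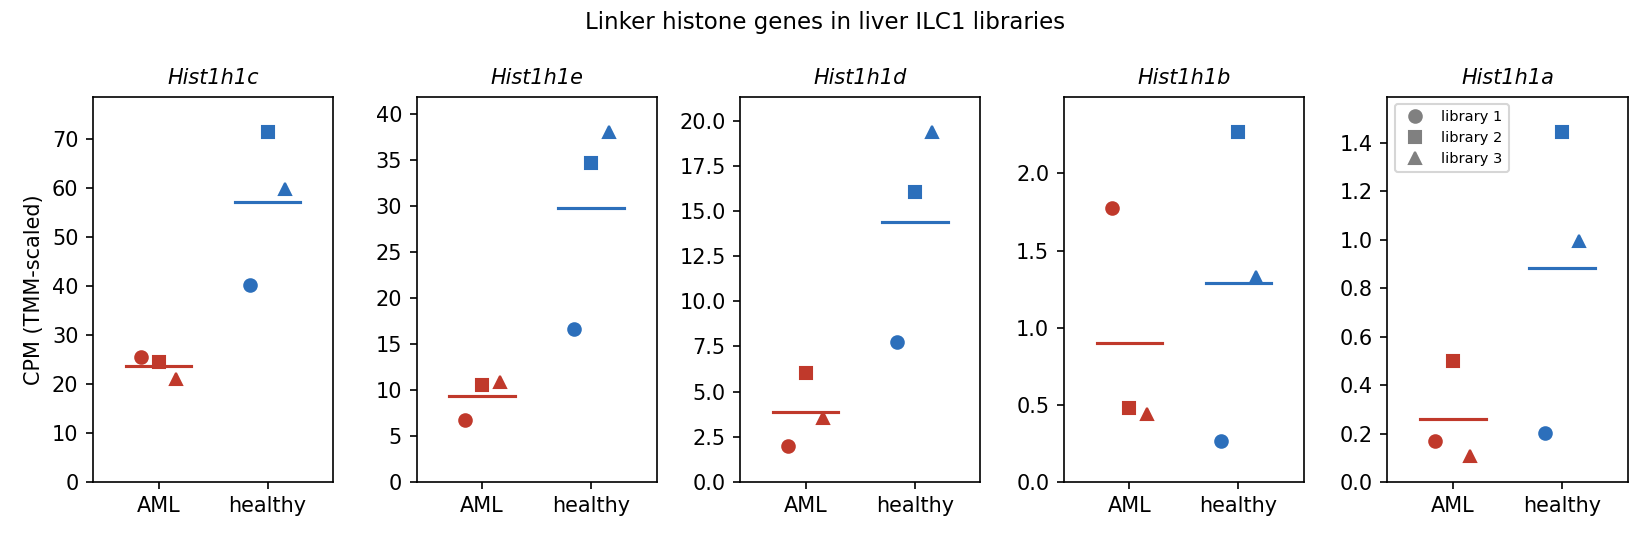
CPM of each linker gene by library, with AML left of healthy in every panel, the group mean as a line, and axes that start at 0. Hist1h1c, Hist1h1e and Hist1h1d do not overlap between groups, while Hist1h1b and Hist1h1a do.

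The linker genes also differed in how they varied against each other within the AML group. Hist1h1c took 70.5%, 58.3% and 58.5% of the linker CPM in AML 1 to 3, against 61.8%, 56.8% and 50.03% in healthy 1 to 3. AML 1 was the highest and the groups overlapped. The ratio of Hist1h1d to Hist1h1c in CPM was 0.0781, 0.246 and 0.169 in AML libraries, against 0.193, 0.224 and 0.324 in healthy libraries. AML 1 was the lowest of the 6 in this ratio too.

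No histone member passed an adjusted p of 0.05 in the quasi-likelihood test of edgeR, where 0% of 12469 genes passed in either direction. At an unadjusted p under 0.05, 7 members were lower in AML and 0 higher, namely 3 linker and 4 core genes. Over all genes tested 3.75% were lower and 5.08% higher at that p. All 5 linker and 28 of 32 core genes had a negative fold change, against 48% of all genes. In 3 linker and 3 core genes the highest AML library was still below the lowest healthy one, as it was in 7.34% of all genes. In no member were the AML libraries all above, as they were in 8.2% of all genes. The linker genes had a median log2 fold change of -1.67 and the core genes one of -0.72, beside 0.01 over all genes tested. Of 11 members at a log2 fold change of -1 or lower (1.25% of all genes were), 5 had a mean below 1 CPM.

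The call on the linker genes depended on the test and on which libraries were kept. DESeq2 called 3 members lower, Hist1h1c (adjusted p = 4.07e-07), Hist1h1e (3.23e-05) and Hist1h1d (0.00261), where it called 0.313% of genes lower and 0.834% higher. With edgeR's likelihood ratio test these 3 genes had adjusted p of 1.11e-05, 0.000815 and 0.0280, where 0.192% of genes were lower and 0.61% higher. limma-voom called no member and no gene. Without healthy 1, edgeR's quasi-likelihood test called Hist1h1c (adjusted p = 0.00985) and Hist1h1e (0.0154), with 0.0705% of genes lower and 0.627% higher. Without AML 1 it called no member, with 0.964% of genes lower and 0.188% higher. Hist1h1c was then just past the threshold, at an adjusted p of 0.0515, with Hist1h1e at 0.0967 and Hist1h1d at 0.143. Over all alternatives the adjusted p of Hist1h1c ran from 4.07e-07 to 0.816, and its log2 fold change was negative in each. In the authors' deposited table, which gives a likelihood ratio score for these same libraries, 25 members were listed. Of these, Hist1h1c (adjusted p = 7.7e-08), Hist1h1e (8.07e-05) and Hist1h1d (0.0106) were marked as lower, and 0.276% of its genes were lower at an adjusted p of 0.05.

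**Figure D4:**
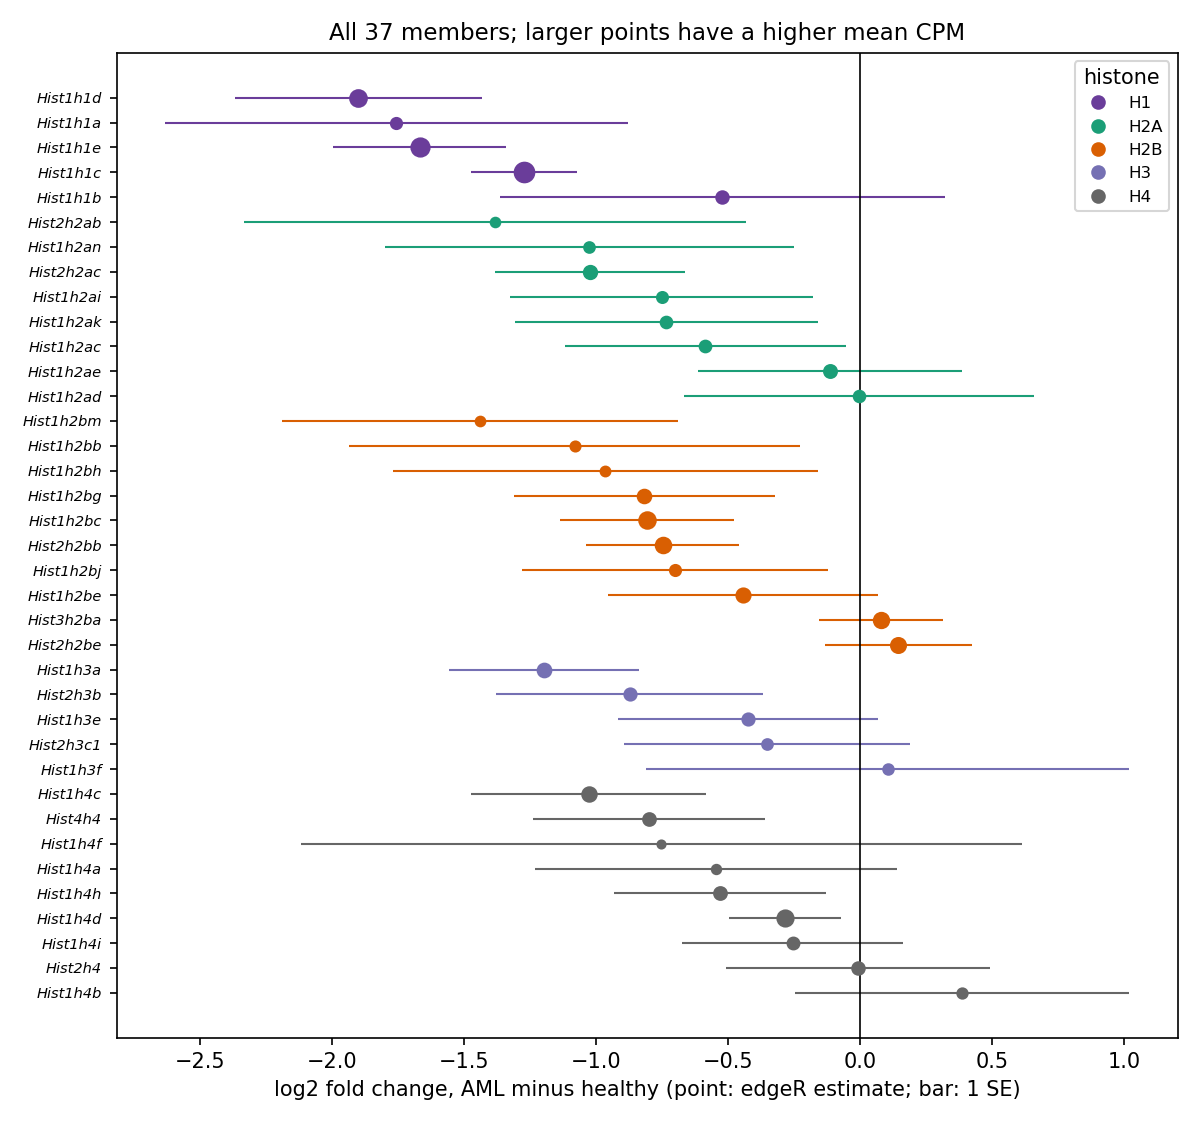
Log2 fold change, AML minus healthy, of all 37 members, grouped by histone and coloured accordingly, with bars of 1 SE from edgeR and larger points for a higher mean CPM. Most points lie left of 0, and Hist1h1d, Hist1h1e and Hist1h1c, the 3 linker genes with the most reads, are at -1.90, -1.67 and -1.27.

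Compared per length, the order of levels over all 6 libraries was led by linker genes. Hist1h1c had a mean of 32.7 ± 3.2 RPKM in AML and 79.0 ± 21.8 RPKM in healthy libraries (SD, n = 3 each). Hist1h1e had 11.98 ± 2.91 RPKM in AML and 38.1 ± 14.7 RPKM in healthy libraries, and Hist1h4d 17.3 ± 1.3 RPKM in AML and 21.1 ± 4.0 RPKM in healthy libraries. The order thus differed between groups, with Hist1h4d above Hist1h1e in AML. Hist1h1d had 4.97 ± 2.62 RPKM in AML and 18.6 ± 7.7 RPKM in healthy libraries. In AML its mean was below those of Hist3h2ba, Hist1h2bc, Hist2h2bb and Hist1h4c, at 10.2, 7.86, 7.82 and 5.27 RPKM, while in healthy libraries it came next after Hist1h4d. Hist1h2bc, Hist2h2bb and Hist3h2ba had means of 10.8, 10.5 and 9.95 RPKM over all 6 libraries. Their SDs within a group ran from 0.841 to 5.35 RPKM, so their order is uncertain. The median member was at 1.55 RPKM and the lowest at 0.178 RPKM.

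Among H2A genes all 8 had a negative estimate, with a median log2 fold change of -0.74. Hist2h2ac, an H2A gene of the chromosome 3 cluster, had 0.855, 1.15 and 1.24 CPM in AML, against 1.62, 2.63 and 2.35 CPM in healthy libraries. Its groups did not overlap, at -1.02 ± 0.36 (SE; edgeR adjusted p = 0.497). Hist1h2ae had 1.82, 1.36 and 0.799 CPM in AML, against 0.729, 1.87 and 1.70 CPM in healthy libraries. Here AML 1 and healthy 2 were alike and healthy 1 was the lowest of all, and the estimate changed sign without AML 3, healthy 2 or healthy 3. Hist1h2ac and Hist1h2ak were at log2 fold changes of -0.59 and -0.73 with overlapping groups.

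Among H2B genes 8 of 10 had a negative estimate, with a median of -0.78. Hist1h2bc had 7.27, 6.66 and 4.27 CPM in AML, against 7.13, 15.2 and 9.53 CPM in healthy libraries, so that AML 1 and healthy 1 were alike. Its log2 fold change was -0.81 ± 0.33 (SE; edgeR adjusted p = 0.552). Hist2h2bb had 3.23, 3.98 and 4.33 CPM in AML, against 4.36, 8.28 and 6.75 CPM in healthy libraries. These groups did not overlap, though AML 3 and healthy 1 almost met, at -0.75 ± 0.29 (SE; edgeR adjusted p = 0.539). Hist2h2be and Hist3h2ba had estimates near 0, with overlapping groups. Hist2h2be had 4.49, 4.59 and 3.34 CPM in AML, against 3.00, 3.48 and 4.76 CPM in healthy libraries, and Hist3h2ba 3.76, 5.19 and 5.19 CPM in AML, against 4.09, 4.86 and 4.42 CPM in healthy libraries. Their log2 fold changes were 0.15 ± 0.28 and 0.08 ± 0.24 (SE), with edgeR adjusted p of 0.876 and 0.928, which does not show that the groups are equal.

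Among H3 genes 4 of 5 had a negative estimate, with a median of -0.42. Hist1h3a had 0.983, 1.65 and 1.09 CPM in AML, against 2.11, 3.38 and 3.07 CPM in healthy libraries. Every AML library was below every healthy one, and the log2 fold change of -1.20 ± 0.36 (SE; edgeR adjusted p = 0.464) was the lowest of the core members with a mean of at least 1 CPM. Hist2h3b was at -0.87, Hist1h3e at -0.42 and Hist2h3c1 at -0.35, each with overlapping groups.

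Among H4 genes 8 of 9 had a negative estimate, with a median of -0.53, and none had groups that did not overlap. Hist1h4d, with the most reads of them, had 6.91, 6.16 and 5.97 CPM in AML, against 6.44, 7.40 and 9.35 CPM in healthy libraries. AML 1 was above healthy 1, at -0.28 ± 0.21 (SE; edgeR adjusted p = 0.685). Hist1h4c had 1.22, 2.55 and 2.14 CPM in AML, against 2.05, 5.33 and 4.69 CPM in healthy libraries, at -1.03 ± 0.44 (SE; edgeR adjusted p = 0.565). AML 2 and AML 3 were above healthy 1. Hist1h4h and Hist4h4 were at -0.53 and -0.80. Hist2h4 was at -0.01 and took either sign across the alternatives.

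Healthy 1 and AML 1 were low in most histone genes. Healthy 1 was the lowest healthy library in 35 of 37 members, against 34.7% of all genes. AML 1 was the lowest AML library in 25 members, namely 23 of 32 core and 2 of 5 linker genes, against 37.2% of all genes. The highest of all 6 libraries was healthy 2 in 18 members and healthy 3 in 14. Without healthy 1 the median log2 fold change was -1.96 over the linker and -0.99 over the core genes. Without AML 1 and healthy 1 it was -1.89 and -0.77, and edgeR's quasi-likelihood test then called Hist1h1c, Hist1h1d and Hist1h1e, with 1.74% of genes lower and 1.79% higher.

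By position, 28 members lie on chromosome 13, 7 on chromosome 3, and 1 each on chromosomes 11 and 6. On chromosome 13 the 6 core members of the block between 21716412 and 22043658 had a median log2 fold change of -0.74. The 17 core members of the block between 23531044 and 23762386 had a median of -0.55, and the 7 members on chromosome 3 one of -0.75. Hist1h1b lies in the first block and the other 4 linker genes in the second, which ends at 23764412 when they are included. In 3 pairs both members start within 500 bases of each other on opposite strands. Hist2h2ac and Hist2h2be start 192 bases apart and had log2 fold changes of -1.02 and 0.15, while Hist1h2ac and Hist1h2bc, 240 bases apart, had -0.59 and -0.81.

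The core estimates were also read by uniqueness of sequence and by annotated end, with no test. The 15 core members with more than 50% unique windows had a median log2 fold change of -0.75, and the 17 others one of -0.59. The 14 core members whose GENCODE transcript runs more than 100 bases past the loop had a median of -0.39. The 9 that stop within 100 bases had one of -0.75, and the 9 without a found loop one of -0.75. The last group includes members whose GENCODE transcript may end before the loop, so it does not stand for genes that lack one. All 5 linker genes had more than 50% unique windows. At the edge of the count rule, Hist1h2bm had 5, 6 and 10 reads in AML, against 7, 26 and 25 in healthy libraries, and Hist1h4f had 0, 13 and 1 in AML, against 1, 12 and 10 in healthy libraries. Just outside it, Hist1h2ab had 16, 5 and 5 in AML, against 5, 9 and 9 in healthy libraries, and Hist3h2bb-ps 0, 6 and 9 in AML, against 4, 9 and 10 in healthy libraries. No member met the rule through 1 group alone, and 27 had at least 10 reads in all 6 libraries. The 27 rows below the rule summed to 1.38 to 1.64 CPM in AML and 0.932 to 2.31 CPM in healthy libraries.

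Histone variants, whose transcripts mostly carry poly(A) tails and are also made outside S phase, had estimates of either sign. Of 10 tested, 0 passed the quasi-likelihood test of edgeR, 6 had a negative and 4 a positive estimate, and the median log2 fold change was -0.03. The list was written with results of these data known. H3f3b, which encodes the replacement histone H3.3, had 979, 702 and 717 CPM in AML, against 1350, 1258 and 1299 CPM in healthy libraries. Its groups did not overlap, at -0.70 ± 0.13 (SE; edgeR adjusted p = 0.397). It passed the threshold with DESeq2, with the likelihood ratio test, without AML 1, and without AML 1 and healthy 1. H2afy, encoding macroH2A1, and H2afj were at -0.08 and 0.06. H1f0, the linker variant of resting cells, had 88.5, 103 and 124 CPM in AML, against 99.0, 96.1 and 89.5 CPM in healthy libraries, at 0.15 ± 0.12 (SE; edgeR adjusted p = 0.704); it was chosen after its values were seen.

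The genes that make and handle histone transcripts had estimates near 0 at the median. Of 15 tested genes of histone transcription and 3′ end processing, 0 passed edgeR's quasi-likelihood test, and the median log2 fold change was -0.02. Slbp, which binds the stem-loop, had 266, 200 and 201 CPM in AML, against 233, 231 and 241 CPM in healthy libraries. AML 1 was the highest and AML 2 and 3 the lowest, at -0.08 ± 0.12 (SE; edgeR adjusted p = 0.833). Upf1, which takes part in histone mRNA decay, and Cpsf3, the endonuclease of 3′ end cleavage, were at -0.02 and -0.08. Of 13 histone chaperones 0 passed, with a median of 0.05, and Ssrp1, Rbbp4 and Daxx were at -0.07, -0.08 and 0.05.

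Cell cycle genes had mostly positive estimates over all 6 libraries, and medians below 0 without AML 1 and healthy 1. Of 28 S phase genes 0 passed the quasi-likelihood test of edgeR and 23 had a positive estimate, with a median log2 fold change of 0.26. They summed to 1878, 1306 and 1232 CPM in AML, against 1202, 1508 and 1123 CPM in healthy libraries. AML 1 was the highest and the groups overlapped, and without AML 1 and healthy 1 the median was -0.01. Mcm6, Mcm4 and Mcm5, subunits of the replicative helicase, were at 0.15, 0.17 and 0.17. The 20 genes of G2 and M phase all had positive estimates, with a median of 1.24, and 0 passed. They summed to 460, 99.2 and 138 CPM in AML, against 52.0, 204 and 66.1 CPM in healthy libraries. AML 1 was again the highest, and without AML 1 and healthy 1 the median was -0.28. Among histone genes, AML 1 was the lowest AML library in 23 of 32 core genes and in 2 of 5 linker genes. Top2a, Mki67 and Kif11, known from dividing cells, were at 1.42, 0.88 and 1.30.

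**Figure D5:**
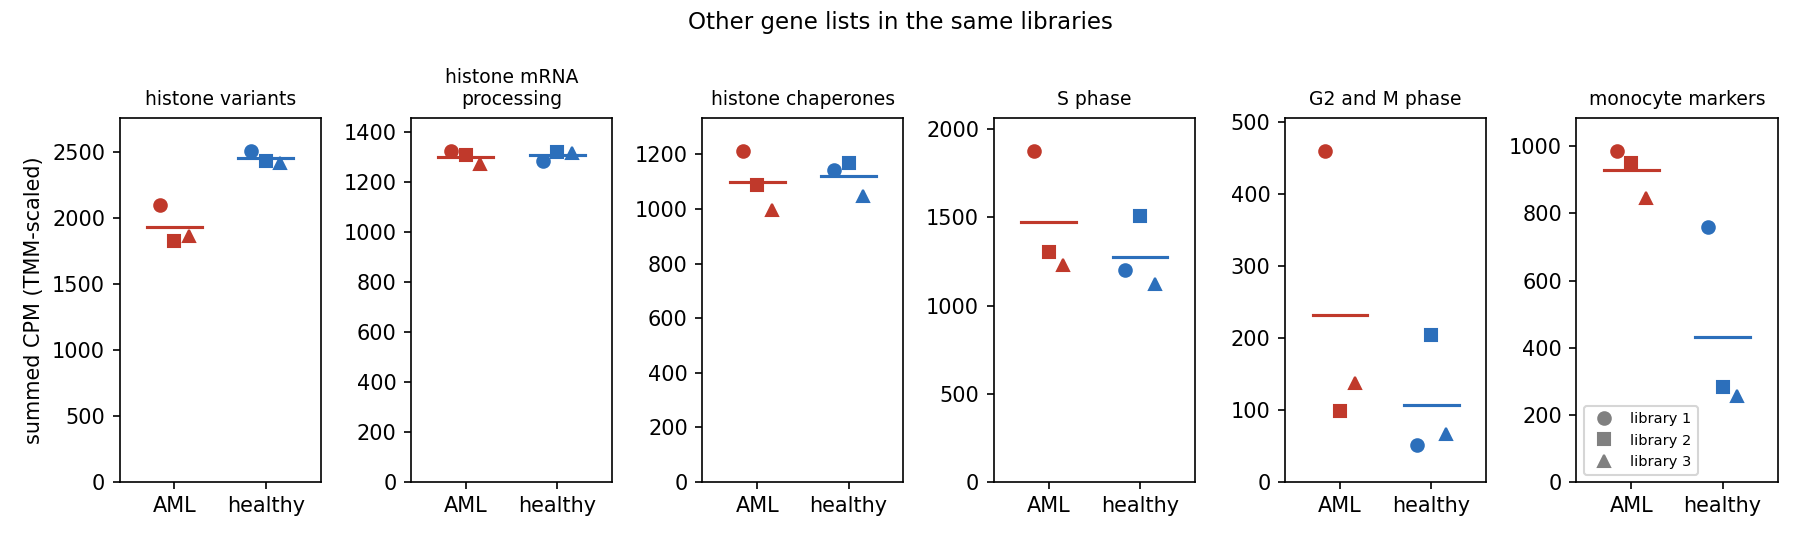
Summed CPM per library of 5 gene lists and of the monocyte markers, with AML left of healthy, the group mean as a line, and axes that start at 0. The summed histone variants, of which H3f3b has the most CPM, are lower in AML, AML 1 stands highest for S phase and G2 and M phase genes, and healthy 1 lies near the AML libraries for monocyte markers.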

How the data were processed

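Messenger RNA was measured in liver ILC1 of AML and healthy mice, in 3 libraries per group. Groups came from the disease label and titles, columns from the description label, and the labels give no batch. Raw read counts per gene were deposited by the authors for 24091 symbols. A second table deposited by the authors gives their comparison, with log2 fold changes, log2 average CPM, a likelihood ratio score, p-values and adjusted p-values for 9769 genes, and values per library that equal the RPKM of the counts up to a nearly constant factor, so it was used for description only. The submitters' processing notes name STAR 2.6.0, HTSeq 0.6.0, edgeR 3.28.1, mm10 and hg19, without roles. Strand was not kept, per the labels' protocols.

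Counts were fitted in edgeR 4.0.16 (R 4.3.3) by its quasi-likelihood method, using TMM size factors, filterByExpr at a minimum count of 10 and a design of group only. Tests were two-sided, with Benjamini-Hochberg adjustment over 12469 genes and a threshold of 0.05. The fit was tested on simulated data. Standard errors of fold changes are those implied by the F statistic. CPM and RPKM are on TMM-scaled library sizes. An exact permutation test of a single value, 3 against 3, cannot go below p = 0.1, so none is given. A count of 0 allows up to 3 reads, or 0.0574 to 0.0641 CPM, covering counting error only, since reads are not independent molecules.

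The members, lists and named genes were chosen with earlier results of these data known, so no list was tested and no p was adjusted over a list. Named were all linker genes, the 4 core genes of each class with the most CPM, the 3 with the highest and 3 with the lowest fold change at 1 CPM or more, those at the edge of the count rule, and the 3 of each list with the most CPM. One of the 16 names written for 3′ end processing, Symplk, matched no row. Alternatives were RLE, upper quartile and total count size factors, other count filters, DESeq2 1.42.0, the likelihood ratio test, limma-voom (limma 3.58.1), the replicate number as block, omission of each library, and narrower member rules. Positions are mm10 counted from 1.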

Additional observations from a re-analysis of the deposited data

How the results depend on the processing

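The linker and core medians and summed differences kept their sign and moved by less than the spread between libraries under the alternatives run for them. The summed differences were not recomputed for the likelihood ratio test, limma-voom or the replicate block. Leaving out 1 library in turn, the linker median log2 fold change ran from -1.96 to -1.21 and the linker sum difference from -1.69 to -1.22. The core values ran from -0.99 to -0.47 and from -0.75 to -0.33. Histone members past the threshold numbered 3 with DESeq2, 3 with the likelihood ratio test and 3 without AML 1 and healthy 1, and 0 to 2 leaving out 1 library in turn. Genes past the threshold numbered 143 with DESeq2, 100 with the likelihood ratio test, 2 with no filter on low counts, 2 with the stricter filter, 2 with total count only, 1 with upper quartile size factors and 444 without AML 1 and healthy 1. Leaving out 1 library in turn gave 0 to 147 genes, with 147 without AML 1 and 89 without healthy 1. The cause was not tested.

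Of the values of named histone members under the alternatives, 347 kept their sign and side of the threshold, 11 of Hist1h1c, Hist1h1d and Hist1h1e newly passed it and 11 changed sign. Of those of other named genes 224 kept both, 4 of H3f3b newly passed and 12 changed sign. Hist2h4 was at 0.0094 with limma-voom, 0.064 with total count only, 0.020 with upper quartile factors and 0.0040 without AML 1 and healthy 1. Upf1 was at 0.044 with total count only, 0.00091 with upper quartile factors and 0.025 without AML 1 and healthy 1. Without those libraries Hist2h2be was at -0.053, Daxx at -0.026, Mki67 at -0.36 and Kif11 at -0.51. Leaving out 1 library in turn, the estimate ran from -1.48 to 0.17 for Hist1h1b, -0.43 to 0.15 for Hist1h2ae, -0.28 to 0.30 for Hist2h4, -0.084 to 0.045 for Upf1, -0.14 to 0.024 for Rbbp4, -0.010 to 0.092 for Daxx, -0.0058 to 0.24 for Mcm6, -0.022 to 1.56 for Mki67 and -0.10 to 2.61 for Kif11.

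The replicate number as a block left 0 members and 0 genes past the threshold, and a linker median of -1.62 and a core median of -0.61. Deviations of equally numbered libraries correlated at 0.130, -0.0523 and 0.158. AML 1 correlated best with healthy 1 and AML 3 with healthy 3, while AML 2 correlated best with healthy 3, at 0.0814. With 3 libraries per group these values cannot decide whether equal numbers share a batch, and the labels give none. The unknown counting of reads that match several histone copies, and the loss of transcripts without a poly(A) tail, limit every level given, and genes below 1 CPM rest on few reads.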
